A study of Mus musculus with 12 samples.

Results

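The genes described here are those of the tumor necrosis factor (TNF) superfamily, taken by symbol: Tnf, every Tnfsf and Tnfrsf gene with a number, Lta and Ltb. Of 23183 gene symbols in the deposited values, 34 fit these names, 14 of them ligands and 20 receptors. The 27 with at least 0.3 FPKM (fragments per kilobase, corrected for sequencing depth) in at least 3 of the 12 libraries are described, 11 ligands and 16 receptors. The other 7 are Tnfsf4, Tnfsf11, Tnfsf18, Tnfrsf8, Tnfrsf11b, Tnfrsf13c and Tnfrsf19. The libraries are RNA-seq of kidney cortex from male mice of 6 to 7 weeks, on a C57BL/6 background by the labels and C57BL/6N by the study's methods. The ureter of 1 kidney was closed (unilateral ureteral obstruction, UUO), and the obstructed and the contralateral (CL) kidneys were taken on day 7. Wild-type mice were compared with Acot12-/- mice, which carry a germline mutant allele, made with an RNA-guided endonuclease, of this acyl-CoA thioesterase gene, so that every cell carries it. Each of the 4 groups (WT CL, WT UUO, Acot12-/- CL and Acot12-/- UUO) has 3 libraries. The CL kidney comes from an operated mouse, and no sham-operated kidney was analyzed here.

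TNF superfamily ligands are trimeric proteins of the cell surface, many of which are also shed, and their receptors carry cysteine-rich domains outside the cell. Receptors with a death domain (such as TNFR1) can start apoptosis or necroptosis, and receptors without it recruit TRAF adaptors, and both kinds reach NF-kappaB. In the kidney, TNF and TWEAK signaling are known from tubular injury and inflammation, while lymphotoxins, BAFF and the costimulatory members are known mainly from lymphocytes and myeloid cells.

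Promoter sequences are shown for Tnf, because it names the family, and for the 4 members with the largest log2 rise after UUO in wild-type kidneys (Ltb, Tnfrsf12a, Tnfrsf1b and Tnfrsf9). They are the bases before the RefSeq start in GRCm38.p6, 5′ to 3′ in the direction of the gene, ending where an exon of the GENCODE annotation begins. Tnf lies on the minus strand (chr17:35202008-35202257), as do Tnfrsf12a (chr17:23677469-23677699) and Tnfrsf1b (chr4:145246871-145247120). Ltb (chr17:35194257-35194438) and the upstream start of Tnfrsf9 (chr4:150919905-150920154) lie on the plus strand. Capitals mark a match to the NF-kappaB decamer, and none of the 5 holds the AP-1 letters TGANTCA.
Tnf: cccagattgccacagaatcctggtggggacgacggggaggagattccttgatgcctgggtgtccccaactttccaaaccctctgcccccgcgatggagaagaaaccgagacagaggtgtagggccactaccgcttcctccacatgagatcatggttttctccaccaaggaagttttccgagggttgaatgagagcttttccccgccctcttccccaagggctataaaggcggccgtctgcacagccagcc
Ltb: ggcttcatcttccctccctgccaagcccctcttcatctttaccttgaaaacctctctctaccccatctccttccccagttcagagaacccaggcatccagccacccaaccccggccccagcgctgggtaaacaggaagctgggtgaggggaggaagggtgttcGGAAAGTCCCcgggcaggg
Tnfrsf12a: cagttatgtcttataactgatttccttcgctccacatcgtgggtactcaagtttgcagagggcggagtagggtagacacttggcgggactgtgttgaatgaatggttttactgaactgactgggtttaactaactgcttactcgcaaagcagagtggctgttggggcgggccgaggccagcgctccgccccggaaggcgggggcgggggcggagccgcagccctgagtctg
Tnfrsf1b: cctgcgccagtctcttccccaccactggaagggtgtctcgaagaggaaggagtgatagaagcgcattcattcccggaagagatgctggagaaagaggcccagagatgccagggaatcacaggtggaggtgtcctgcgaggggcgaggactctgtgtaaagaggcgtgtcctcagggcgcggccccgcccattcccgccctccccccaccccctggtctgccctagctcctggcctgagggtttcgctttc
Tnfrsf9: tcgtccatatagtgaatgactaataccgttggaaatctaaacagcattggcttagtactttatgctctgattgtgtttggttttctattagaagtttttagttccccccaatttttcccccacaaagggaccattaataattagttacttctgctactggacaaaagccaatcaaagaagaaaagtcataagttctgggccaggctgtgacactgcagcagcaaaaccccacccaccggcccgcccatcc
The decamer of Ltb begins 87 bases before its RefSeq start. Of the 22 described members with a window of 250 bases in the RefSeq table, 3 held a decamer match on either strand (Ltb, Tnfrsf25 and a second start of Tnfrsf9) and 4 an AP-1 match (Tnfsf13, Tnfsf13b, Tnfsf14 and that second start of Tnfrsf9). Counted by window, 3 of their 25 windows (12%) held the decamer and 4 (16%) the AP-1 letters. Of all 32536 windows of this length, 7.28% held the decamer and 6.73% the AP-1 letters, matches being counted also where they overlap. A match describes the letters of these windows only.

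The deposited values are steps of whole fragments, and a step was smaller in UUO libraries, which were deeper. For Tnf, 1 fragment was worth 0.0448 to 0.0590 FPKM in CL and 0.0318 to 0.0394 FPKM in UUO libraries. Acot12 ranged from 52.7 to 78.1 FPKM in WT CL and from 6.80 to 9.15 FPKM in Acot12-/- CL kidneys, and from 9.98 to 21.2 FPKM in WT UUO and from 1.80 to 3.86 FPKM in Acot12-/- UUO kidneys. Acot12-/- CL replicate 2 stood apart, with Pearson correlations of log2 values of 0.959 and 0.952 with the other 2 libraries of its group, against 0.979 to 0.993 for the other pairs within groups. Tubule, podocyte and endothelial markers were present in every library. Proximal tubule markers summed to 1306 to 1834 FPKM in WT CL and 313 to 551 FPKM in WT UUO, and injured tubule markers to 884 to 2810 and 14435 to 15907 FPKM.

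The first comparison asked how obstruction moved the family in each genotype. In wild-type kidneys, 18 of the 27 genes rose after UUO and none fell (adjusted p under 0.05 from limma on log2(FPKM + 1), which understates changes of genes at low FPKM), beside 23.7% of all 14963 genes tested that rose and 21.7% that fell. In Acot12-/- kidneys 22 rose, beside 27.7% of all genes, and Tnfrsf21 fell, beside 24.6%. The median log2 fold change of the 27 was 0.58 in wild-type and 0.74 in Acot12-/- kidneys, against 0.03 and 0.04 over all genes. Tnf, Lta, Tnfsf8, Tnfrsf9, Tnfrsf13b and Tnfrsf17 reached 0.3 FPKM in UUO libraries only, so their selection favors higher values after UUO. The counts and medians of the 27, and the calls of these genes after UUO, carry no weight as evidence for that reason. In wild-type kidneys 8 of 11 ligands and 10 of 16 receptors rose, and in Acot12-/- kidneys 9 ligands and 13 receptors. In both genotypes 17 genes were called. When every library was scaled to the same total FPKM, the median of all genes moved to 0.56 in wild-type and 0.43 in Acot12-/- kidneys, the share of lower genes among all calls went from 47.8% to 11.8% and from 46.9% to 18.6%, and 21 and 23 members rose with none called lower, beside 55.2% and 46.5% of all genes called higher and 7.35% and 10.6% called lower. The median of the 27 was then 0.93 and 0.97.

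**Figure D1:**
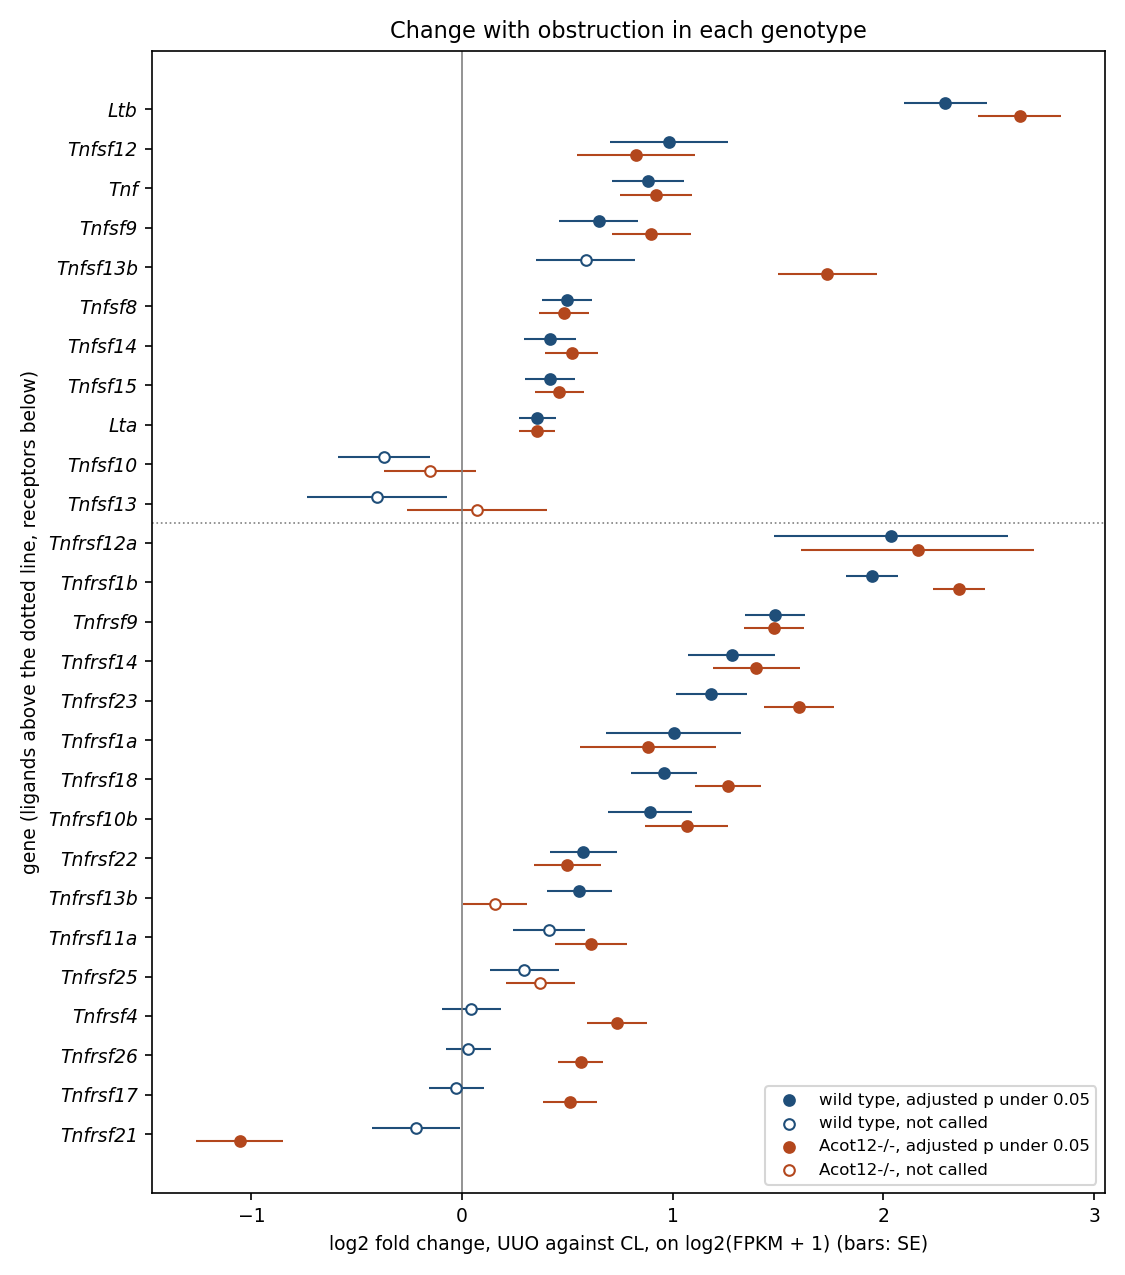
Log2 fold change of UUO against CL on log2(FPKM + 1) (x axis) for each of the 27 genes (y axis) in wild-type (blue) and Acot12-/- (orange) kidneys, with SE bars and filled points for an adjusted p under 0.05. Ltb lies farthest to the right in both genotypes (2.29 and 2.65), and Tnfrsf21 is the only filled point left of 0 (-1.06, Acot12-/-).

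**Figure D2:**
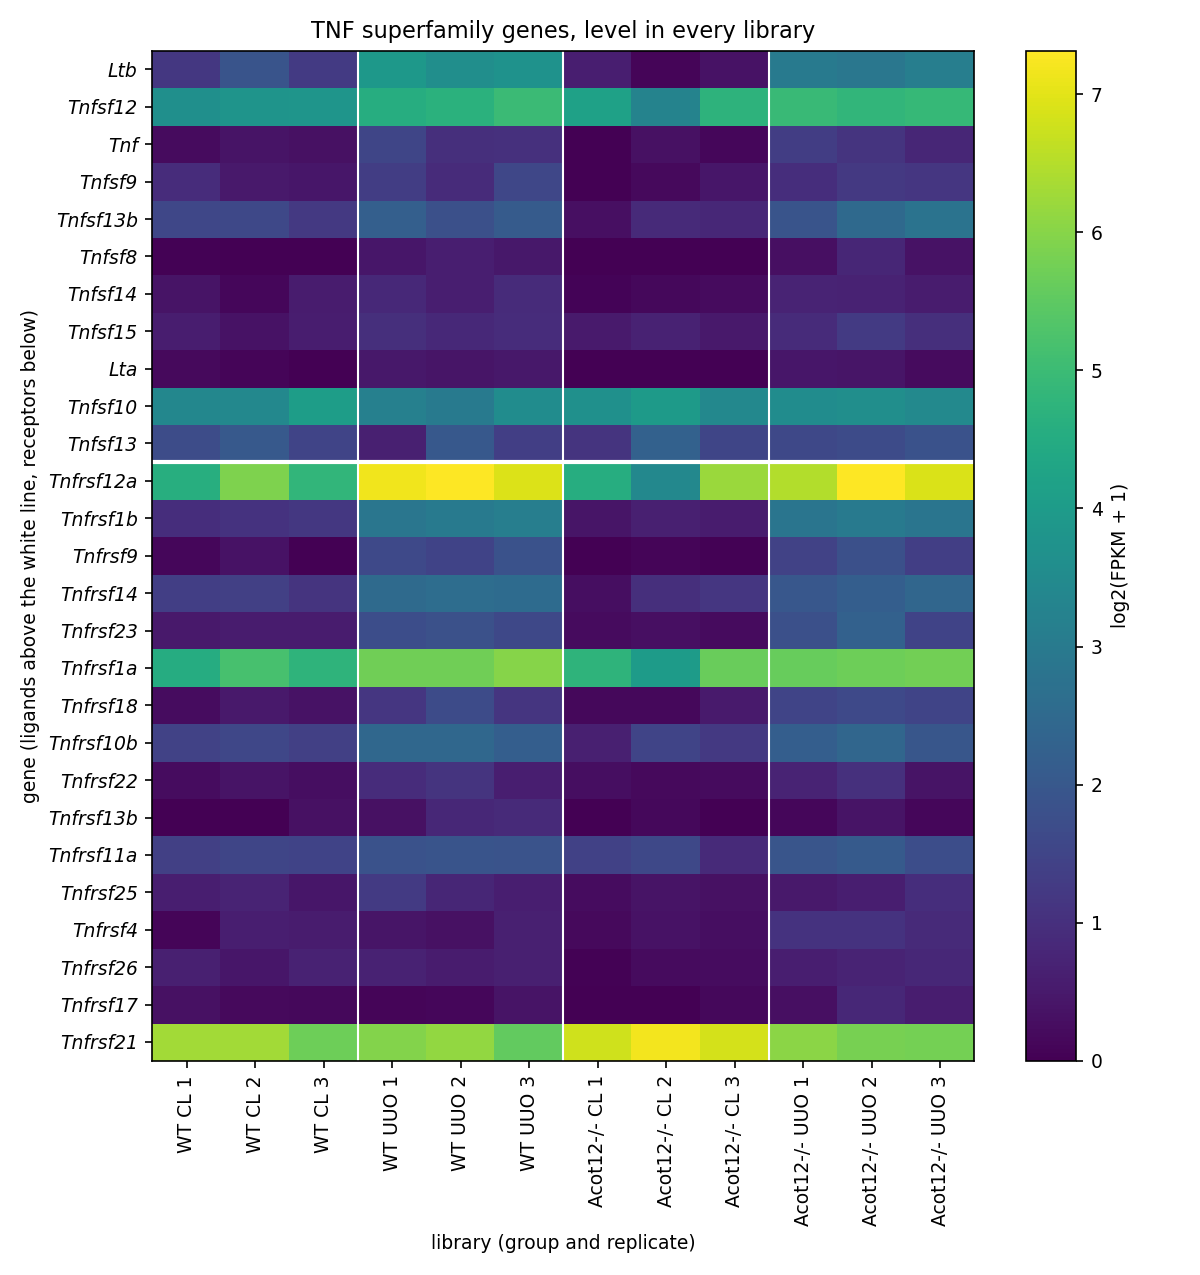
Color shows log2(FPKM + 1) of each gene (rows, ligands above and receptors below the white line) in each library (columns, 3 for each of 4 groups). Tnfrsf12a, Tnfrsf1a, Tnfrsf21, Tnfsf12 and Tnfsf10 are bright in every library, and most other rows brighten in the UUO columns.

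FPKM are per length, so levels can be set side by side. In WT CL kidneys Tnfrsf21 had the highest level (68.8 ± 15.7 FPKM, mean ± SD, n = 3), followed by Tnfrsf12a (36.1 ± 19.2) and Tnfrsf1a (27.7 ± 7.02), which did not differ beyond their spread. Tnfsf12 (12.5 ± 0.936) and Tnfsf10 (11.6 ± 3.59) came next and also did not differ beyond their spread, and no other member had a mean above 2.39 FPKM. In WT UUO kidneys Tnfrsf12a led with 140 ± 19.2 FPKM, and Tnfrsf21 (58.7 ± 11.3) and Tnfrsf1a (55.7 ± 6.33) were within each other's spread. The abundant receptors were thus TNFR1, the TWEAK receptor and DR6, and the abundant ligands TWEAK and TRAIL.

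Tnf, Lta and Ltb lie next to each other on chromosome 17 (35199381 to 35202007 for Tnf, GRCm38). Tnf encodes the cytokine that binds TNFR1 and TNFR2. It had 0.157, 0.295 and 0.258 FPKM in WT CL and 1.91, 0.998 and 1.03 FPKM in WT UUO libraries, and 0, 0.248 and 0.0900 FPKM in CL libraries of Acot12-/- mice and 1.52, 1.14 and 0.709 FPKM in Acot12-/- UUO libraries. Every UUO library lay above every CL library of its genotype, as for 35.5% of all genes in wild-type and 29.6% in Acot12-/- kidneys. The WT CL values rest on 3, 5 and 5 fragments and the WT UUO values on 60, 29 and 32. The log2 fold change was 0.88 (SE 0.17, adjusted p = 0.00138) in wild-type and 0.92 (SE 0.17, adjusted p = 0.000765) in Acot12-/- kidneys. Tnf reached 0.3 FPKM in UUO libraries only, so its selection favors this direction. In whole tissue, fewer cells of a type and less RNA per cell cannot be told apart, here and below. Macrophage markers (10 genes, none at 0 in every library) summed to 161 to 185 FPKM in WT CL, 676 to 820 in WT UUO, 55.4 to 123 in CL libraries of Acot12-/- mice and 737 to 975 in Acot12-/- UUO libraries, and T cell markers (8 genes) to 10.8 to 16.6, 41.5 to 43.4, 2.76 to 4.63 and 18.5 to 29.9. Their part in the results on the family was not tested.

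Lymphotoxin alpha (Lta), a soluble ligand of the TNF receptors that also joins lymphotoxin beta in a surface trimer, stayed low. It had 0.130, 0.0700 and 0 FPKM in WT CL, 0.380, 0.329 and 0.385 in WT UUO, 0 in all 3 Acot12-/- CL and 0.351, 0.330 and 0.166 FPKM in Acot12-/- UUO libraries. That is at most 2 fragments in a CL library and 4 to 10 in a UUO library, with no overlap between the sides. The log2 fold change was 0.36 in both genotypes (SE 0.09, adjusted p = 0.00575 and 0.00468). Lta reached 0.3 FPKM in UUO libraries only, so its selection favors this direction. Lymphotoxin beta (Ltb), the membrane anchor of that trimer, was far more abundant and had the largest change of all members on log2(FPKM + 1) in both genotypes. By the ratio of wild-type means, Tnfrsf9 changed more, from 0.120 to 2.14 FPKM (17.9-fold). The WT CL mean of Tnfrsf9 rests on 2, 6 and 0 fragments, so this ratio is uncertain. Tnfrsf9 also reached 0.3 FPKM in UUO libraries only. Ltb had 1.30, 2.73 and 1.38 FPKM in WT CL and 14.0, 11.1 and 12.2 in WT UUO libraries, against 0.541, 0.0770 and 0.286 in CL libraries of Acot12-/- mice and 6.97, 6.49 and 7.79 in Acot12-/- UUO libraries. No groups of Ltb overlapped, neither between sides nor between genotypes. The wild-type mean of Ltb rose 6.90-fold (log2 2.29, SE 0.20, adjusted p = 9.71e-06), and its log2 change in Acot12-/- kidneys was 2.65 (SE 0.20, adjusted p = 1.54e-06).

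The TNF receptors themselves differed in level. Tnfrsf1a (TNFR1, the death domain receptor of most cells) had 21.9, 35.5 and 25.8 FPKM in WT CL, 52.2, 52.0 and 63.1 in WT UUO, 26.2, 15.1 and 49.4 in CL libraries of Acot12-/- mice and 48.5, 50.8 and 52.8 in Acot12-/- UUO libraries. The sides did not overlap in wild-type kidneys and overlapped in Acot12-/- kidneys through CL replicate 3. The log2 fold change was 1.00 (SE 0.32, adjusted p = 0.0235) and 0.88 (SE 0.32, adjusted p = 0.0364). Both calls were fragile. The wild-type call was lost without WT CL replicate 1 or 3 or WT UUO replicate 1 or 3 (adjusted p at most 0.0894), and the Acot12-/- call without CL replicate 1 or 2 or any Acot12-/- UUO replicate (adjusted p 0.0671 to 0.113, log2 0.48 without CL replicate 2). Tnfrsf1b (TNFR2, found mainly on leukocytes and endothelium, without a death domain) had 0.925, 1.09 and 1.26 FPKM in WT CL, 6.39, 7.10 and 7.67 in WT UUO, 0.342, 0.554 and 0.459 in CL libraries of Acot12-/- mice and 6.11, 7.01 and 6.21 in Acot12-/- UUO libraries. It rose 6.47-fold in wild-type and 14.3-fold in Acot12-/- means (log2 1.95 and 2.36, SE 0.12 for each, adjusted p = 1.35e-06 and 2.23e-07), the smallest adjusted p of any member in each genotype.

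Tnfsf12 encodes TWEAK, and Tnfrsf12a its receptor Fn14, which injured tubular cells are known to raise. Tnfrsf12a had 23.2, 58.2 and 26.9 FPKM in WT CL, 142, 158 and 120 in WT UUO, 22.5, 9.75 and 73.0 in CL libraries of Acot12-/- mice and 87.8, 158 and 118 in Acot12-/- UUO libraries. The sides did not overlap in either genotype, although the CL values spread widely. The log2 fold change was 2.03 (SE 0.55, adjusted p = 0.0105) in wild-type and 2.16 (SE 0.55, adjusted p = 0.00611) in Acot12-/- kidneys, and 1.51 (adjusted p = 0.0179) without Acot12-/- CL replicate 2. Tnfsf12 had 11.4, 12.9 and 13.2 FPKM in WT CL, 22.6, 24.3 and 30.4 in WT UUO, 17.2, 8.71 and 25.7 in CL libraries of Acot12-/- mice and 30.3, 26.9 and 29.1 in Acot12-/- UUO libraries. It rose by 0.98 (SE 0.28, adjusted p = 0.0137) and 0.82 (SE 0.28, adjusted p = 0.0270) on the log2 scale. Without Acot12-/- CL replicate 2 the rise in Acot12-/- kidneys was 0.43 (adjusted p = 0.0466). The wild-type call was lost without WT UUO replicate 3 (0.86, adjusted p = 0.0534) and the Acot12-/- call without any of its UUO replicates (adjusted p 0.0515 to 0.0702). Tnfsf12 lies 465 bases from Tnfsf13 on chromosome 11, and a read-through gene of the pair (Tnfsfm13) had 0.691 to 2.16 FPKM in WT CL and 5.01 to 6.23 FPKM in WT UUO libraries, so fragments could have been split among the 3.

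**Figure D3:**
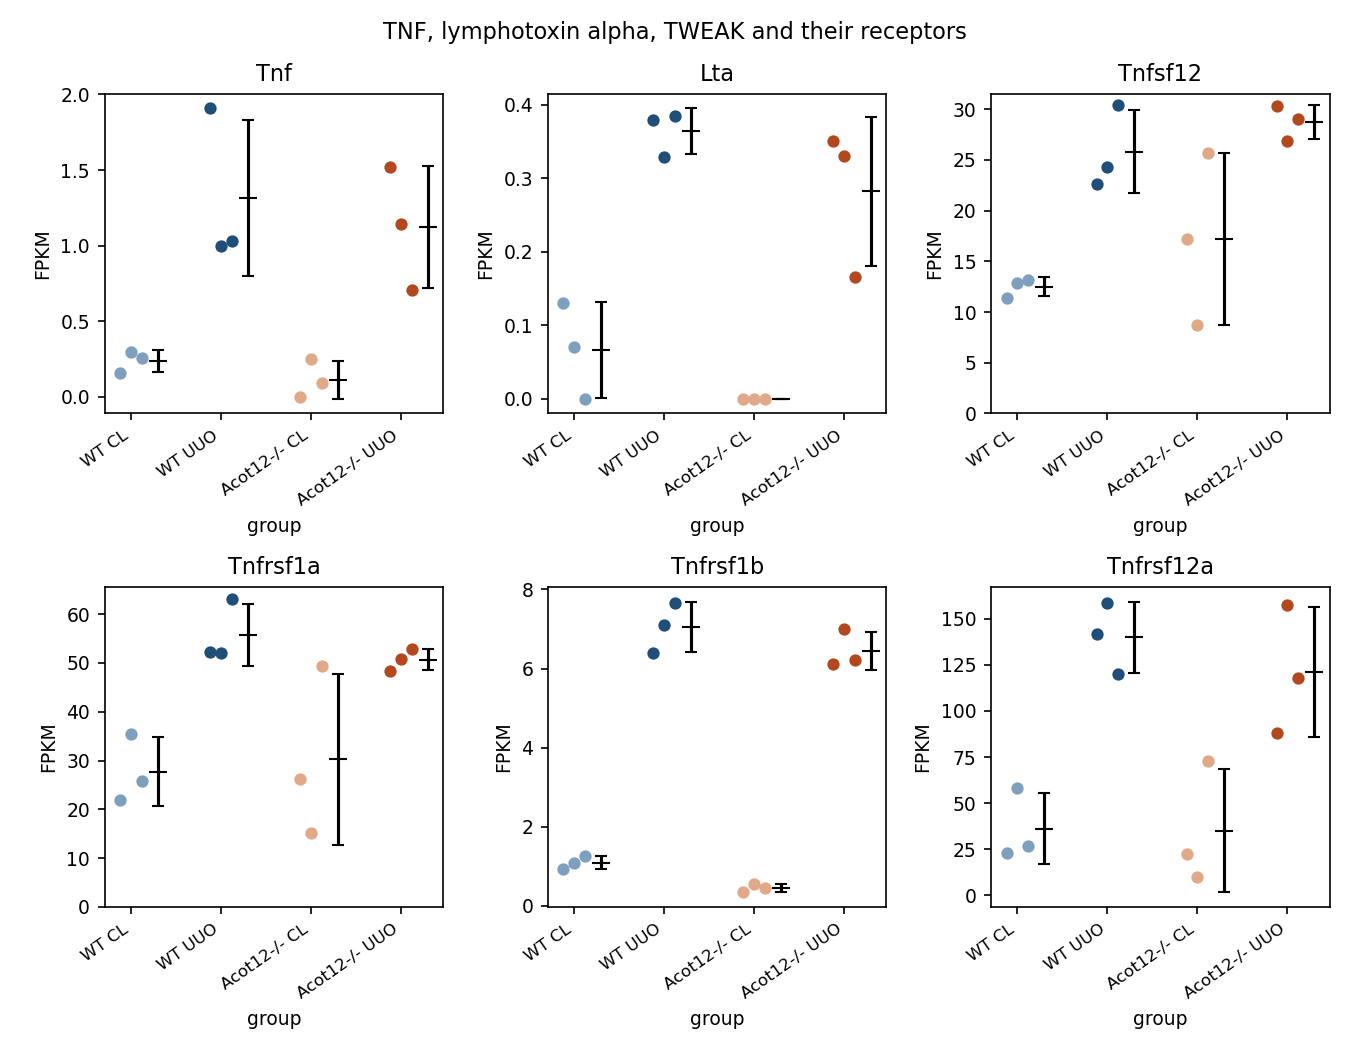
FPKM (y axis, linear) of Tnf, Lta, Tnfsf12, Tnfrsf1a, Tnfrsf1b and Tnfrsf12a in each library (points) by group (x axis), with mean and SD (black). Tnfrsf12a is 120 to 158 in WT UUO and 23.2 to 58.2 in WT CL, and Tnf stays under 2 FPKM in every library.

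The costimulatory receptors of T cells Tnfrsf9 and Tnfrsf18 rose in both genotypes. Tnfrsf9 (4-1BB) had 0.0840, 0.275 and 0 FPKM in WT CL, 2.05, 1.78 and 2.58 in WT UUO, 0, 0.0780 and 0.0350 in CL libraries of Acot12-/- mice and 1.71, 2.46 and 1.58 in Acot12-/- UUO libraries. That is at most 6 fragments in a CL library and 58 to 103 in a UUO library, without overlap of the sides (log2 1.49 and 1.48, SE 0.14, adjusted p = 1.76e-05 and 8.36e-06). Tnfrsf9 reached 0.3 FPKM in UUO libraries only, so its selection favors this direction. Tnfrsf18 (GITR), an activation receptor of T cells, had 0.192, 0.420 and 0.271 FPKM in WT CL, 1.24, 2.22 and 1.19 in WT UUO, 0.117, 0.112 and 0.429 in CL libraries of Acot12-/- mice and 1.84, 2.04 and 1.84 in Acot12-/- UUO libraries. It rose in both genotypes without overlap (log2 0.96 and 1.26, SE 0.16, adjusted p = 0.000449 and 4.44e-05). The ligand of 4-1BB, Tnfsf9, had 0.896, 0.407 and 0.353 FPKM in WT CL, 1.54, 0.857 and 1.95 in WT UUO, 0, 0.134 and 0.371 in CL libraries of Acot12-/- mice and 0.941, 1.31 and 1.25 in Acot12-/- UUO libraries. The wild-type sides overlapped and the Acot12-/- sides did not (log2 0.65 and 0.90, SE 0.19, adjusted p = 0.0144 and 0.00171), and the wild-type call was lost without WT CL replicate 3 (0.56, adjusted p = 0.0589) or WT UUO replicate 3 (0.50, adjusted p = 0.0628).

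The ligands of GITR and OX40 (Tnfsf18 and Tnfsf4) had at most 5 and 1 fragments in any library. Tnfrsf4 (OX40) was not called in wild-type kidneys (CL 0.0810 to 0.528, UUO 0.258 to 0.575 FPKM, adjusted p = 0.816) and rose in Acot12-/- kidneys (CL 0.145 to 0.289, UUO 0.828 to 1.12 FPKM, log2 0.74, SE 0.14, adjusted p = 0.000927). Tnfsf8, the ligand of CD30, was at most 0.0370 FPKM in a CL library and 0.226 to 0.731 FPKM in UUO libraries (log2 0.50 and 0.48, adjusted p = 0.00526 and 0.00493). It reached 0.3 FPKM in UUO libraries only, so its selection favors this direction. Tnfrsf14 (HVEM, which binds LIGHT and also the inhibitory receptor BTLA) had 1.58, 1.61 and 1.16 FPKM in WT CL, 4.79, 5.07 and 4.91 in WT UUO, 0.202, 0.984 and 1.22 in CL libraries of Acot12-/- mice and 2.94, 3.55 and 4.39 in Acot12-/- UUO libraries. It rose without overlap in both genotypes (log2 1.28 and 1.40, SE 0.21, adjusted p = 0.000406 and 0.000153). LIGHT itself (Tnfsf14) stayed under 1 FPKM in every library and rose by 0.42 and 0.52 (adjusted p = 0.0164 and 0.00404). Its wild-type call was lost without WT CL replicate 2 or WT UUO replicate 1 or 3 (adjusted p 0.0578 to 0.0708).

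Among the receptors of death ligands, Tnfrsf10b, the mouse TRAIL death receptor, had 1.72, 1.92 and 1.61 FPKM in WT CL, 4.39, 4.44 and 3.53 in WT UUO, 0.566, 1.84 and 1.33 in CL libraries of Acot12-/- mice and 3.59, 4.31 and 2.91 in Acot12-/- UUO libraries. The sides did not overlap (log2 0.89 and 1.07, SE 0.20, adjusted p = 0.00335 and 0.000805). Tnfrsf23, a decoy receptor of TRAIL, had 0.406, 0.466 and 0.470 FPKM in WT CL, 2.33, 2.53 and 2.02 in WT UUO, 0.159, 0.228 and 0.167 in CL libraries of Acot12-/- mice and 2.44, 3.85 and 1.77 in Acot12-/- UUO libraries, with log2 changes of 1.18 and 1.60 (SE 0.17, adjusted p = 0.000173 and 1.44e-05). Its neighbor and paralog Tnfrsf22 went from 0.183 to 0.316 FPKM in WT CL to 0.525 to 1.13 FPKM in WT UUO (log2 0.58, adjusted p = 0.0109) and rose by 0.50 in Acot12-/- kidneys (adjusted p = 0.0187). The calls of Tnfrsf22 were lost without WT UUO replicate 2 (0.47, adjusted p = 0.0507) and without Acot12-/- UUO replicate 2 (0.35, adjusted p = 0.0865). The genes lie 16147 bases apart on chromosome 7 next to Tnfrsf26, and how shared reads of such paralogs were counted is not given in the sources used here. TRAIL (Tnfsf10) was between 7.00 and 15.8 FPKM in every library and was not called (log2 -0.37 and -0.15, adjusted p = 0.184 and 0.582).

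Tnfrsf21 (DR6), a death domain receptor, was the only member that fell, and it fell in Acot12-/- kidneys. It had 78.1, 77.7 and 50.6 FPKM in WT CL, 61.2, 68.5 and 46.3 in WT UUO, 108, 145 and 113 in CL libraries of Acot12-/- mice and 64.7, 54.8 and 54.5 in Acot12-/- UUO libraries. UUO was below CL in each of the 6 pairs of the same replicate number. The groups overlapped in wild-type and not in Acot12-/- kidneys, as for 25.3% of all genes in that direction. The log2 fold change was -1.06 (SE 0.21, adjusted p = 0.00116) in Acot12-/- and -0.22 (SE 0.21, adjusted p = 0.419) in wild-type kidneys. With every library at the same total FPKM it was -0.52 (adjusted p = 0.0696) in Acot12-/- kidneys. Tnfsf15 (TL1A) rose in both genotypes (log2 0.42 and 0.46, adjusted p = 0.0126 and 0.00594, the first lost without WT CL replicate 2 at 0.34, adjusted p = 0.0541), and its receptor Tnfrsf25 (DR3) was not called (0.29 and 0.37, adjusted p = 0.161 and 0.0762).

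The B cell members moved unevenly. BAFF (Tnfsf13b), the survival factor of B cells made mainly by myeloid and stromal cells, had 1.93, 1.99 and 1.31 FPKM in WT CL, 3.67, 2.45 and 3.25 in WT UUO, 0.228, 0.837 and 0.756 in CL libraries of Acot12-/- mice and 2.70, 4.69 and 5.92 in Acot12-/- UUO libraries. The sides did not overlap in either genotype, and the gene was called in Acot12-/- (log2 1.73, SE 0.23, adjusted p = 7.83e-05) and not in wild-type kidneys (0.59, SE 0.23, adjusted p = 0.0582). With mouse as a replicate block it was called in wild-type kidneys too (0.59, SE 0.16, adjusted p = 0.0172). APRIL (Tnfsf13) was not called (-0.41 and 0.07, adjusted p = 0.341 and 0.879). The BAFF receptor (Tnfrsf13c) had at most 7 fragments in a library. TACI (Tnfrsf13b) was called in wild-type kidneys (0 to 0.265 FPKM in CL and 0.255 to 0.841 in UUO, overlapping, log2 0.56, adjusted p = 0.0108) and BCMA (Tnfrsf17), a receptor of plasma cells, in Acot12-/- kidneys (0 to 0.107 FPKM in CL and 0.228 to 0.753 in UUO, log2 0.51, adjusted p = 0.00579). TACI and BCMA reached 0.3 FPKM in UUO libraries only, so their selection favors this direction. Plasma cell markers (Jchain and Mzb1) summed to 8.03 to 10.05 FPKM in WT UUO and 20.6 to 45.0 FPKM in Acot12-/- UUO libraries. B cell markers summed to 3.18 to 4.02 and 4.66 to 5.51 FPKM. Their part in the values of TACI and BCMA was not tested. RANK (Tnfrsf11a), the receptor of osteoclast differentiation, was 1.62 to 1.87 FPKM in WT CL and 2.55 to 2.75 in WT UUO (log2 0.41, adjusted p = 0.0648, and 0.0266 with mouse as a replicate block) and rose by 0.61 in Acot12-/- kidneys (adjusted p = 0.00943, and 0.0529 with only those groups in the fit).

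**Figure D4:**
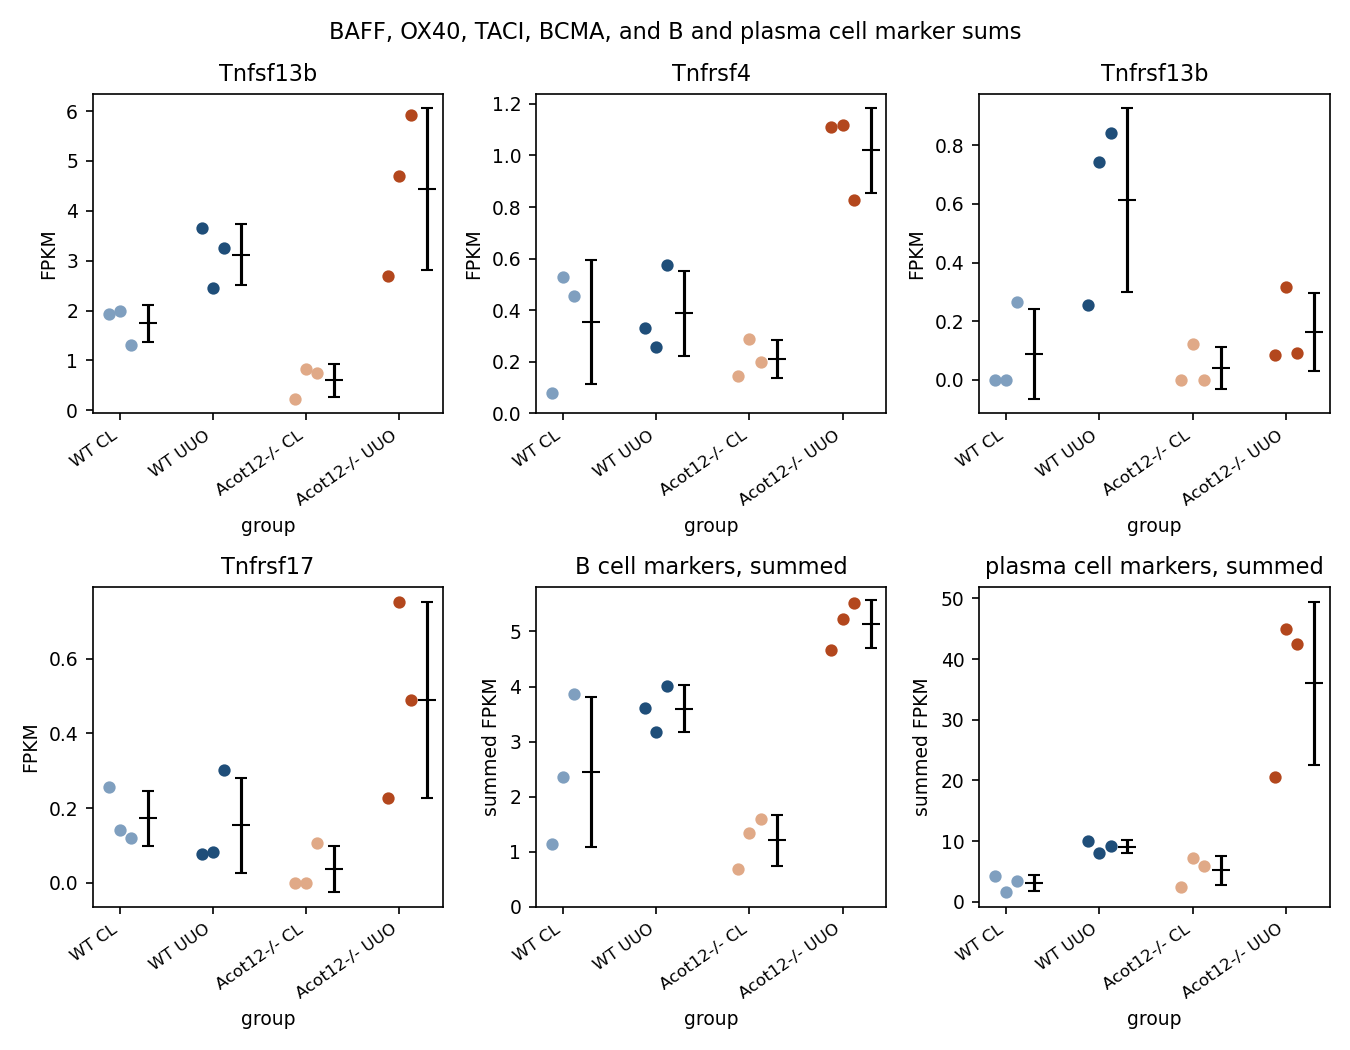
FPKM (y axis, linear) of Tnfsf13b, Tnfrsf4, Tnfrsf13b and Tnfrsf17, and summed FPKM of B cell and plasma cell markers, in each library (points) by group (x axis), with mean and SD (black). Tnfsf13b is 0.228 to 0.837 in Acot12-/- CL, below all other groups, and plasma cell markers are highest in Acot12-/- UUO.

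The genotypes were compared first in CL kidneys. Ltb, Tnfrsf1b and Tnfrsf26 were lower in Acot12-/- CL kidneys, beside 3.08% of all genes called lower, and Tnfrsf21 was higher, beside 0.976% called higher. At an unadjusted p under 0.05 there were 6 of 27, beside 17% of all genes. Ltb was lower by a log2 difference of -1.09 (SE 0.20, adjusted p = 0.0130), Tnfrsf1b by -0.53 (SE 0.12, adjusted p = 0.0356) and Tnfrsf26 by -0.44 (SE 0.11, adjusted p = 0.0399). Tnfrsf26, a receptor of the TRAIL decoy cluster, had 0.571, 0.353 and 0.627 FPKM in WT CL, 0.619, 0.463 and 0.554 in WT UUO, 0.0240, 0.152 and 0.179 in CL libraries of Acot12-/- mice and 0.529, 0.669 and 0.754 in Acot12-/- UUO libraries, so that the Acot12-/- CL libraries lay below all others. It rose after UUO in Acot12-/- kidneys (0.56, SE 0.11, adjusted p = 0.000832). Tnfrsf21 was higher by 0.84 (SE 0.21, adjusted p = 0.0455), and for each of these 4 genes the CL groups did not overlap, as for 18.6% of all genes.

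These CL calls depended on the fit. With only the 6 CL libraries in the fit none of the 27 was called, and with every library at the same total FPKM 1 was. Leaving out 1 library at a time gave 1 to 6 calls. Without Acot12-/- CL replicate 2, which stood apart, 4 members were lower and 2 higher, and Ltb was at -0.96 (adjusted p = 0.0111). The share of all genes called with a library left out is not given here, so these counts do not set the family apart. Without a single library, the calls of Tnfrsf1b, Tnfrsf21 and Tnfrsf26 were lost for 9, 10 and 8 of the 12 libraries (adjusted p 0.0526 to 0.127, 0.0594 to 0.152 and 0.0525 to 0.145), while the call of Ltb remained for each library left out. For all 3 genes these were WT CL replicates 1 and 3, WT UUO replicates 1 and 2, Acot12-/- CL replicate 1 and Acot12-/- UUO replicate 3. WT CL replicate 2, Acot12-/- CL replicate 3 and Acot12-/- UUO replicate 1 came on top for Tnfrsf1b and Tnfrsf21, Acot12-/- UUO replicate 2 for Tnfrsf21 and Tnfrsf26, and WT UUO replicate 3 for Tnfrsf26. T cell markers were also lower in Acot12-/- CL (2.76 to 4.63 against 10.8 to 16.6 summed FPKM, 6 of 8 called), as were 4 of 10 macrophage, 4 of 5 endothelial and 2 of 8 fibroblast markers, and their part in the lower Ltb, Tnfrsf1b and Tnfrsf26 was not tested. Proximal tubule markers summed to 1665 to 3290 FPKM in Acot12-/- CL against 1306 to 1834 FPKM in WT CL beside the higher Tnfrsf21 (0 of 7 called), and their part was not tested either.

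**Figure D5:**
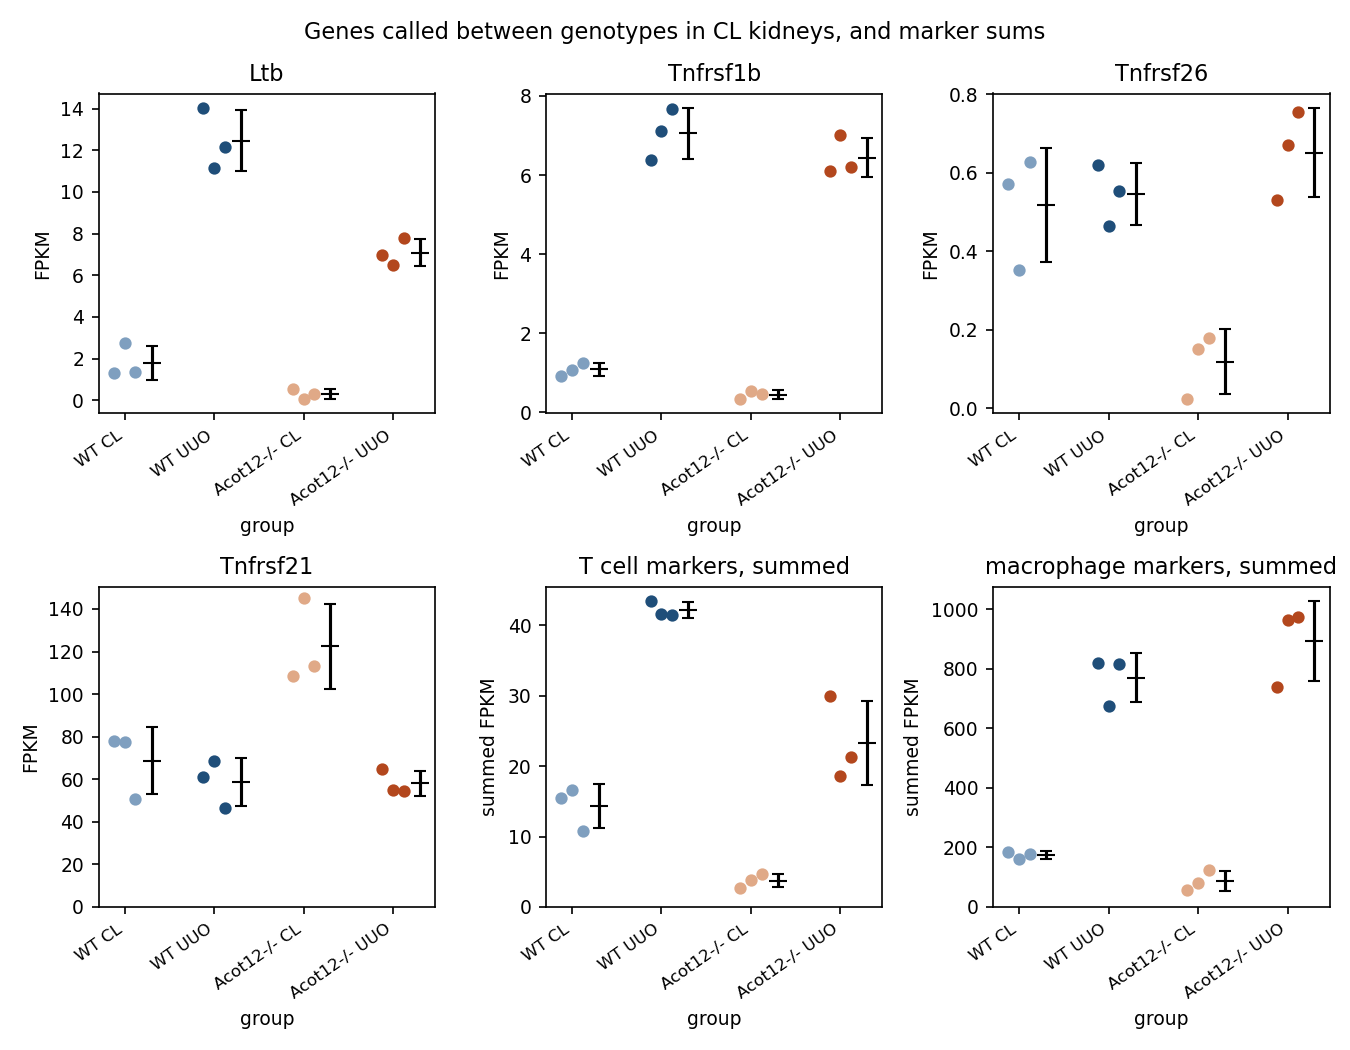
FPKM (y axis, linear) of Ltb, Tnfrsf1b, Tnfrsf26 and Tnfrsf21 and summed FPKM of T cell and macrophage markers in each library (points) by group (x axis), with mean and SD (black). In Acot12-/- CL, Ltb, Tnfrsf1b, Tnfrsf26 and the T cell and macrophage sums are lowest and Tnfrsf21 is highest (108 to 145 FPKM).

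In UUO kidneys no member was called between genotypes, and neither was any of the 14963 genes (0% called). Acot12 itself missed the threshold there (log2 difference -2.07, SE 0.28, adjusted p = 0.0529), although its groups did not overlap. At an unadjusted p under 0.05 there were 4 members, Ltb, Tnfrsf4, Tnfrsf13b and Tnfrsf17, beside 3.01% of all genes. Ltb was lower in every Acot12-/- UUO library than in every WT UUO library (6.49 to 7.79 against 11.1 to 14.0 FPKM, log2 difference -0.73, SE 0.20, adjusted p = 0.877). Groups without overlap made up 12% of all genes in this comparison. T cell markers likewise did not overlap (18.5 to 29.9 against 41.5 to 43.4 summed FPKM, 0 of 8 called and 6 of 8 at an unadjusted p under 0.05), and their part in the Ltb difference was not tested. Tnfrsf4 was higher in every Acot12-/- UUO library (0.828 to 1.12 against 0.258 to 0.575 FPKM, log2 difference 0.54, SE 0.14, adjusted p = 0.826). Tnf differed by -0.12 (SE 0.17, adjusted p = 1), with overlapping groups.

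Whether obstruction acted differently in the genotypes was tested by the interaction. None of the 27 was called in limma, beside 0.0535% of all genes, and 6 had an unadjusted p under 0.05, beside 10.5%. They were Tnfsf13b (interaction 1.15, SE 0.33, adjusted p = 0.182), Tnfrsf4 (0.69, SE 0.20, adjusted p = 0.182), Tnfrsf17 (0.54, SE 0.18, adjusted p = 0.279), Tnfrsf26 (0.53, SE 0.15, adjusted p = 0.169), Tnfrsf1b (0.41, SE 0.17, adjusted p = 0.433) and Tnfrsf21 (-0.84, SE 0.29, adjusted p = 0.298). A member called in a single genotype was therefore not shown to differ between them.

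Related genes with other names were counted by list. After UUO, 23.7% of all genes rose and 21.7% fell in wild-type kidneys, and 27.7% rose and 24.6% fell in Acot12-/- kidneys. Of the superfamily receptors Cd27, Cd40, Relt, Fas, Ltbr and others, 5 of 7 tested rose in each genotype, and Cd40, which drives B cell help, had 1.54 in wild-type kidneys (SE 0.15, adjusted p = 2.15e-05), Relt 1.12 and Cd27, a costimulatory receptor of lymphocytes, 0.77. Of the other ligands, 1 of 2 rose in wild-type and 2 of 2 in Acot12-/- kidneys. Fasl, which triggers apoptosis through Fas, rose by 0.45 in wild-type kidneys (adjusted p = 0.00173). Fas and Ltbr, the receptor of the lymphotoxin trimer, were not called in either genotype. Cd40 was also called lower in Acot12-/- CL kidneys (-0.79, adjusted p = 0.0155), beside 3.08% of all genes, in a comparison whose calls depended on the fit.

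Of 25 receptor adaptors and death signaling genes, 11 rose and none fell in wild-type kidneys, and 11 rose and Ripk1 fell in Acot12-/- kidneys. The largest changes in wild-type kidneys were in Birc3 (2.42, SE 0.16) and Traf1 (2.38, SE 0.14), parts of the receptor complexes, and in Mlkl (1.33, SE 0.29), the effector of necroptosis. Of 17 NF-kappaB subunits, kinases and inhibitors, 12 rose and Chuk fell in wild-type kidneys, and 10 rose and Chuk fell in Acot12-/- kidneys. Both lists stand beside 23.7% of all genes that rose and 21.7% that fell in wild-type kidneys. In Acot12-/- kidneys these shares were 27.7% and 24.6%. Nfkb2 (2.71, SE 0.27) and Relb (2.46, SE 0.21) form the alternative NF-kappaB dimer that lymphotoxin and TWEAK receptors are known to engage, and Tnfaip3 (2.36, SE 0.17) encodes the inhibitor A20.

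Of 23 tested target genes of TNF signaling, 20 rose in wild-type and 23 in Acot12-/- kidneys, with median log2 changes of 2.05 and 2.36. Over all genes 23.7% and 27.7% rose and 21.7% and 24.6% fell, with medians of 0.03 and 0.04. Vcam1, a leukocyte adhesion molecule, had 4.85 (SE 0.28, adjusted p = 8.84e-07) in wild-type kidneys, the chemokine Cxcl1 4.39 (SE 0.67, adjusted p = 0.000285) and endothelin 1 (Edn1) 3.99 (SE 0.28, adjusted p = 2.49e-06). Ccl5, a chemokine of T cells, and Bcl2a1d, a survival gene with near-identical copies, were called lower in Acot12-/- CL kidneys (-2.50 and -1.06, adjusted p = 0.00313 and 0.0280). In that comparison 3.08% of all genes were called lower, and the calls depended on the fit. These genes answer to many signals besides TNF. Of 6 shedding and processing genes, Rhbdf2, which carries the TNF sheddase to the surface, rose in wild-type kidneys (1.94, SE 0.23). Timp3, an inhibitor of the sheddase, fell there (-1.53, SE 0.23). Rhbdf2 rose and Timp3 fell in Acot12-/- kidneys too. The sheddase Adam17 itself was not called. No gene of these lists was called between genotypes in UUO kidneys or by the interaction.

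The genes with the pattern most like that of Tnf over the 12 libraries were Amph (Pearson r 0.977), Rasal1 (0.971), Irf4 (0.967), Tnik (0.966) and H2-M2 (0.965). For Tnfrsf12a they were Trim47 (0.983), Cebpd (0.981), Pfn1 (0.980), Il34 (0.979) and Junb (0.979). The values describe likeness over libraries that share the contrast of UUO with CL and its difference in depth. Tnfrsf12a and its neighbors in pattern shared the low value of Acot12-/- CL replicate 2 (5.97 FPKM for Trim47 against 14.8 and 30.2 in replicates 1 and 3).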

How the data were processed

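RNA was extracted from kidney cortex and directional libraries were sequenced, and trimming, mapping and normalization were done for the authors by a company. The authors deposited 1 table of FPKM per library with no raw counts. The unit was derived from the values, whose totals differ between libraries and in each of which low values come in equal steps, set by transcript length. The submitters' processing notes name mm10 and edgeR, and the aligner is not given in the sources used here. Deposited FPKM cannot enter a count model.

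FPKM were fitted as log2(FPKM + 1) with limma 3.58.1 in R 4.3.3, with 1 mean for each of the 4 groups and eBayes with a variance trend, over genes with at least 0.3 FPKM in at least 3 libraries. A set of 29 genes listed at 0 beside at least 10 FPKM in the same group was left out, which left 14963. P-values were adjusted by Benjamini-Hochberg over all of these, and a gene was called under 0.05. The labels do not say that replicates were separate mice, so p-values measure the spread between these libraries. The method was checked on simulated data, of which no result is given here, so the check adds no weight to the calls. Whole fragments were recovered from the steps for low members. Absolute depth depends on the transcript lengths used and is not given.

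The members and lists were chosen with earlier results of these data known. All members are named. Values of every library are given for called members with the 12 largest changes after UUO in either genotype, for Tnf, Lta, Ltb, Tnfrsf1a and Tnfrsf1b, and for members called between genotypes. From each list of related genes the 3 called genes with the largest wild-type change are named, and those called between genotypes. CL and UUO libraries carry replicate numbers 1 to 3. Residuals of the same number correlated at 0.13, 0.34 and 0.32 in wild-type and 0.31, 0.18 and 0.31 in Acot12-/- kidneys (highest between different numbers 0.12 and -0.08). From this the numbers were taken to pair the kidneys of a mouse within a genotype. The pairing is inferred, and for wild-type number 1 the value of 0.13 was hardly above 0.12. Mouse in this sense entered as a replicate block in an alternative.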

Additional observations from a re-analysis of the deposited data

How the results depend on the processing

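Settings were changed singly to a pseudocount of 0.1, no filter, a filter of 1 FPKM, median-ratio and equal-total scaling, no variance trend, only the groups compared, a replicate block, genes listed at 0 kept, and each of the 12 libraries left out. The count of members called after UUO ran from 14 to 20 in wild-type and from 20 to 24 in Acot12-/- kidneys over the libraries left out, and with the filter of 1 FPKM it was 15 of 17 members tested in Acot12-/- kidneys, since fewer members entered. Of 41 calls of members after UUO, 30 were lost under no alternative they entered, 10 of which did not enter the filter of 1 FPKM. The 30 include Tnf, Lta, Tnfsf8 and Tnfrsf9 in both genotypes, Tnfrsf13b in wild-type and Tnfrsf17 in Acot12-/- kidneys. Those genes reached 0.3 FPKM in UUO libraries only, so keeping their calls carries no weight as evidence. Apart from libraries left out, calls were lost for Tnfsf9 in wild-type kidneys at a pseudocount of 0.1 (adjusted p = 0.0626) and in Acot12-/- kidneys for Tnfrsf21 at equal total FPKM (0.0696), for Tnfrsf1a without a filter (0.0550) and, with only the groups compared, for Tnfrsf11a, Tnfrsf1a and Tnfsf12 (0.0529, 0.0952 and 0.0901). Between genotypes in CL kidneys the count of 4 became 1 at equal total FPKM, 0 with only the groups compared and 1 to 6 over the libraries left out, and the calls over all genes went from 607 to 291 and 1 under the first 2 of these. The cause was not tested. Between genotypes in UUO kidneys and for the interaction the count was 0 under every alternative that gave one. With mouse as a replicate block the counts after UUO were 20 in wild-type and 23 in Acot12-/- kidneys. Between genotypes they were 4 in CL and 0 in UUO kidneys, and 0 for the interaction. The block added Tnfsf13b and Tnfrsf11a in wild-type kidneys and changed no other call of a member. Shares of all genes called are not given here for the libraries left out, the filter of 1 FPKM or the block. The counts of members under these settings therefore do not set the family apart. Those after UUO also include genes that reached 0.3 FPKM in UUO libraries only. The difference of Tnf between genotypes in UUO kidneys, which was not called, ran from -0.25 to 0.058 over the libraries left out and changed sign without WT UUO replicate 1 (0.058) and without Acot12-/- UUO replicate 3 (0.029). Counting error limits Lta, with at most 10 fragments in a library, and Tnfrsf4, with at most 23.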

Other observations

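The values nearest the level of description, as the level reached by at least 3 libraries, were 0.301 FPKM for Tnfrsf17 and 0.317 FPKM for Tnfrsf13b just inside and 0.242 FPKM for Tnfrsf11b (osteoprotegerin) and 0.203 FPKM for Tnfrsf19 just outside, although single libraries of the latter genes reached 0.835 and 0.466 FPKM. RANKL (Tnfsf11), the ligand of RANK, was listed at 0 in all 6 CL libraries and had 2 to 9 fragments in each of the 6 UUO libraries. CD30 (Tnfrsf8), a receptor of activated lymphocytes, had 1.44 FPKM in WT CL replicate 1 and 1.73 FPKM in WT UUO replicate 1, which rest on 52 and 106 fragments, against at most 0.167 FPKM in any other library. By their replicate number these libraries were taken as kidneys of the same mouse, although residuals of this wild-type number correlated at only 0.13. Its ligand Tnfsf8 was at 0.0370 and 0.372 FPKM in the same libraries, within the range of the other libraries of its side in UUO. No test was made, since a single replicate number shows it.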
